A study of Mus musculus with 9 samples.

Results

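The clustered protocadherins are cell-surface adhesion proteins encoded by 3 neighbouring gene clusters, alpha, beta and gamma, and their RNA was compared here between 3 layers of mouse piriform cortex. Members were the protein-coding genes whose symbols begin with Pcdha, Pcdhb or Pcdhg, each represented by its transcript with the highest mean count over the 9 samples. This gave 39 members among 20874 protein-coding genes with a transcript in the data, namely 8 alpha, 22 beta and 9 gamma genes. The annotation (GENCODE M21, build GRCm38, the same assembly as mm10) lists 57 such genes, and the other 18, 6 alpha and 12 gamma, were not analysed here. All members lie on the plus strand of chromosome 18, with alpha members between positions 36930285 and 37187657, beta members between 37264938 and 37521145 and gamma members between 37674307 and 37841873.

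Piriform cortex is the part of the olfactory cortex that receives direct input from the olfactory bulb. Tissue of its layers was cut by laser from fresh-frozen brain sections of wild-type C57BL/6 mice, 8 weeks old per the sample labels (the study's methods give an older age), and RNA was amplified before sequencing. Layers A, B and C had 3 samples each, no treatment was given, and no key links the letters to the numerals I, II and III. The labels do not say that samples of a layer came from separate animals, so p-values measure the spread between these samples, which may be technical.

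Each alpha and gamma gene has its own promoter and its own large variable exon, which is spliced to constant exons shared by the whole cluster, whereas a typical beta gene is a single exon with no constant part. The variable exon encodes the extracellular domain that binds identical protocadherins on another cell. Neurons choose a few promoters each, with the help of the DNA-binding protein CTCF and the cohesin complex, and the resulting mixture lets a neuron recognize its own branches. The last genes of the alpha and gamma clusters, called C-type (Pcdhac1, Pcdhac2, Pcdhgc3, Pcdhgc4 and Pcdhgc5), are not chosen in this random manner.

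Total counts ranged from 23104306 to 76471683 per sample. Mitochondrial transcripts took between 56.4% and 72.6% of counts in layer A, between 13.1% and 30.1% in layer B and between 21.2% and 59.0% in layer C. Levels are given as CPM, counts scaled to a common library size with TMM factors, on which 3 counts correspond to between 0.0256 and 0.254 CPM. Markers of other cell types moved with layer A. Over all transcripts tested, 10.7% were called higher and 5.83% lower in layer A against layer B. Against layer C, 6.98% were called higher and 4.35% lower in layer A. All 12 astrocyte markers and all 12 meningeal and pericyte markers passed the test against both other layers, with layer A the higher. Summed astrocyte markers ranged from 5121 to 10768 CPM in layer A, from 737 to 1231 CPM in layer B and from 1271 to 1752 CPM in layer C. Summed meningeal and pericyte markers ranged from 280.0 to 427 CPM in layer A, 16.9 to 60.6 CPM in layer B and 47.0 to 66.8 CPM in layer C, where the fibroblast collagen Col3a1 had 0 counts in layer B replicate 1 and the transporter Slc6a13 had 0 in layer C replicate 2. Endothelial markers passed the test for 9 of 10 genes between layers A and B and 8 of 10 between layers A and C, and microglia markers for 8 and 7 of 10, all higher in layer A. Summed endothelial markers ranged from 121 to 148 CPM in layer A, 8.85 to 23.2 CPM in layer B and 17.3 to 28.9 CPM in layer C, and summed microglia markers from 160 to 213 CPM, 24.6 to 67.5 CPM and 58.0 to 78.1 CPM. The endothelial marker Ly6c1 had 0 counts in layer C replicate 2. Of 12 oligodendrocyte markers, 4 passed with higher levels in layer A when compared with layer B and none passed against layer C (0 also at an unadjusted p under 0.05 and with DESeq2), and their sums of 202 to 312, 50.7 to 241 and 152 to 522 CPM overlapped. Of 12 glutamatergic neuron markers, 6 were called lower in layer A against layer B and 7 against layer C. In both comparisons 11 of the 12 had a log2 fold change below 0, where 31224 and 28380 of all 56416 transcripts tested did. Camk2a, a kinase whose RNA is carried into dendrites, was called higher in both. Because of Camk2a, at 2976 ± 1037 CPM (SD, n = 3) in layer A, the summed glutamatergic markers were highest in that layer, at 2489 to 4340 CPM against 1546 to 1585 CPM in layer B and 1457 to 2072 CPM in layer C. The transcription factor Emx1, one of these markers, had 0 counts in layer C replicate 2. GABAergic neuron markers passed the test in layer A for 3 of 12 genes, all higher, against layer B and for 2, both lower, against layer C, with sums of 342 to 631 CPM in layer A, 121 to 372 CPM in layer B and 322 to 442 CPM in layer C. The GABAergic marker Pvalb had 0 counts in layer A replicate 1. The part of these other cell types in the differences described here was not tested, and in dissected tissue fewer cells of a type and less RNA per cell cannot be told apart.

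Calls were spread unevenly over the 3 clusters, although no difference between clusters was tested. Most alpha and gamma members share most of their reads within a group, so their calls are not separate measurements, unlike those of beta genes. Alpha genes were lower in layer A than in layers B and C, few beta genes passed the test, most of the others leaning the same way on few reads, and no gamma gene passed it when its whole transcript was counted. Within the gamma cluster, reads attributed to the variable exons of Pcdhgc3 and Pcdhgc5 nonetheless went in opposite directions. Layer A had more for Pcdhgc3 and, on average, fewer for Pcdhgc5 relative to layer B. The Pcdhgc5 change kept its call in only 3 of the 9 fits that left out a sample. An antisense gene overlaps the Pcdhgc3 variable exon, and the libraries did not keep strand.

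Counts of members within the gamma cluster, and within each of 2 groups of alpha transcripts, were close for most members, as they are when reads in constant exons are counted for each transcript, so members of these clusters were not measured independently. In layer B replicate 1, 8 of the 9 gamma members had counts between 4747 and 5005, and Pcdhgc5 had 7201. The lowest gamma member had at least 65.2% of the count of the highest in each of the 9 samples. In the alpha cluster the 2 groups lay far apart. Pcdha12, Pcdhac1 and Pcdhac2 had mean levels of 69.1, 69.0 and 80.0 CPM over the 9 samples, whereas Pcdha1, Pcdha2, Pcdha9 and both transcripts named Pcdha11 had between 2.49 and 3.02 CPM. The mean count of Pcdha12 and Pcdhac1 was between 13.3 and 38.5 times that of Pcdha1, Pcdha2, Pcdha9 and the first Pcdha11 transcript. The annotation gives all 8 the same constant exons, which these counts do not reflect, and the gene models that the authors counted are not given in the sources used here. Levels are therefore not compared between the 2 groups. Different gene identifiers, 2 in number, carry the symbol Pcdha11, and the first of them lies where RefSeq places Pcdha10.

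Alpha genes were lower in layer A. Pcdhac2, the C-type gene nearest the constant exons, had 37.5, 25.3 and 43.8 CPM in layer A replicates 1, 2 and 3, 88.0, 73.7 and 145 CPM in layer B, and 91.5, 126 and 89.4 CPM in layer C. No layer A sample reached the level of any sample of the other layers. On the log2 scale the change from layer B to layer A was -1.52 ± 0.33 (SE; edgeR quasi-likelihood test, adjusted p = 0.0056), and the change against layer C was also -1.52 ± 0.33 (adjusted p = 0.00992). Pcdhac1, the other alpha C-type gene, averaged 30.9 ± 9.15 CPM in layer A, 89.1 ± 41.4 CPM in layer B and 87.2 ± 18.8 CPM in layer C (SD, n = 3). Its level in layer B rested on replicate 3 at 136 CPM, against 71.4 and 59.4 CPM in replicates 1 and 2. Leaving out layer A replicate 2 moved its adjusted p between layers A and B to 0.0514 (log2 fold change -1.31), the highest of the 9 such fits. The Pcdhac1 count exceeded that of the lowest member of its group by only 0 to 14 reads per sample. These Pcdhac1 values therefore describe shared reads more than Pcdhac1 itself.

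The 5 alpha transcripts with small counts showed the same order of layers. Pcdha9 had 0.762, 0.668 and 1.70 CPM in layer A, 4.16, 5.24 and 3.95 CPM in layer B, and 3.88, 3.13 and 3.00 CPM in layer C. Its change of -2.03 ± 0.44 (SE) between layers A and B was the largest in the cluster (adjusted p = 0.00545). Pcdha1, with the lowest level per kilobase of the alpha members, changed by -1.89 ± 0.42 (adjusted p = 0.0059). These transcripts rested on 9 to 72 counts in layer A samples, against 152 to 227 in layer B samples.

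In all, 8 of 8 alpha members were lower in layer A when set against layer B, where 5.83% of all 56416 transcripts tested were called lower, with log2 fold changes between -2.03 and -1.43 and a median of -1.70, against a median of -0.12 over all transcripts tested. Between layers A and C, 7 of 8 were lower, where 4.35% of all transcripts were, and the second Pcdha11 transcript, with a change of -1.14 ± 0.39, did not pass (adjusted p = 0.0737). The median was -1.57, against -0.01 over all transcripts. As these members share most of their reads, the counts stand for little more than 1 measurement per group of transcripts. The call against layer C depended on single libraries. It held for 0 members without layer A replicate 2, 1 member without layer A replicate 1, 1 member without layer C replicate 1 and 4 members without layer C replicate 2.

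**Figure D1:**
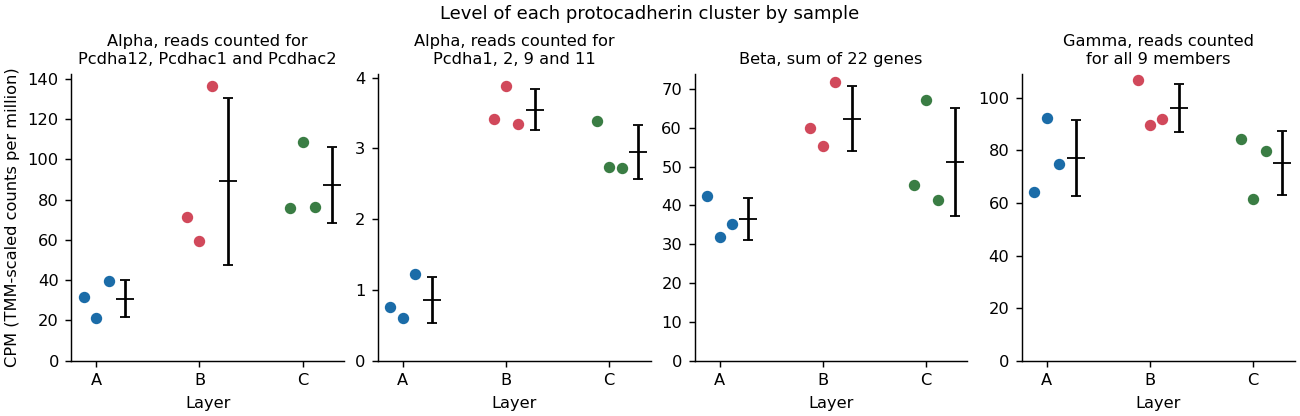
Level of each cluster in the 9 samples, as CPM on a linear axis from 0, with one point per sample and the mean ± SD (n = 3) beside each layer. The alpha and gamma panels show the lowest member count of a group of transcripts, which stands for reads shared within it, and the beta panel shows the sum over 22 genes. Layer A lies below layers B and C in both alpha panels, while in the gamma panel layer A overlaps with both other layers.

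The reads shared by all members of a cluster were approximated in each sample by its lowest member. This level was 30.8 ± 9.20 CPM in layer A, 89.0 ± 41.4 CPM in layer B and 87.0 ± 18.8 CPM in layer C for Pcdha12, Pcdhac1 and Pcdhac2. For the other 5 alpha transcripts it was 0.862 ± 0.322, 3.55 ± 0.288 and 2.95 ± 0.376 CPM. The gamma cluster had 77.2 ± 14.3, 96.1 ± 9.21 and 75.3 ± 12.1 CPM (SD, n = 3 in each case). These levels were not tested, since they are scores over the members, and the alpha members were split into 2 groups after their counts were seen.

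No gamma member passed the test on its whole count. As the 9 members share most of their reads, their results are not 9 separate measurements. A count of 0 among them therefore cannot be weighed against a share of all transcripts. Between layers A and B, 0 of 9 members were called in either direction, where 16.5% of all transcripts were. Their log2 fold changes ran from -0.57 for Pcdhgc5 to 0.03 for Pcdhgc3, with standard errors between 0.27 and 0.30. Between layers A and C, 0 of 9 were called, where 11.3% of all transcripts were, and the changes ran from -0.18 for Pcdhgc5 to 0.32 for Pcdhgc3. At an unadjusted p under 0.05, which 29% and 24.5% of all transcripts passed in these comparisons, the count was also 0 in both, as it was with DESeq2 at an adjusted p of 0.05. Pcdhgc5 and Pcdhgc3 had the highest levels per kilobase of the cluster, 23.3 and 20.0 CPM per kilobase over the 9 samples, and Pcdhgc4 the lowest at 16.6.

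Since shared reads cancel in the difference between members, the reads above the lowest member of a group approximate those that fall in a gene's own variable exon. Such reads were few for most members. The 6 Pcdhga and Pcdhgb genes had 0 to 391 of them per sample, at most 8.59% of a member's count. Of these genes 5 had enough for a fit, and 0 passed in any of the 3 comparisons (lowest adjusted p = 0.218). The 5 alpha transcripts with small counts had 0 to 59 such reads, and Pcdhac1 and Pcdha12 were at or near the lowest member in every sample.

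Pcdhgc3, whose variable exon covers positions 37806410 to 37808977, showed 24.6, 34.4 and 13.8 CPM of such reads in replicates 1, 2 and 3 of layer A, from 290, 515 and 553 reads. It had 4.02, 4.87 and 0.833 CPM in layer B and 7.70, 2.62 and 7.21 CPM in layer C. Every layer A sample was above every sample of the other layers. As a share of the gene's count, these reads made up between 15.5% and 27.7% in layer A, between 0.899% and 5.15% in layer B and between 4.08% and 8.36% in layer C. The fit with shared reads subtracted treats these differences as counts and does not model the error of the subtracted level. In that fit, layer A exceeded layer B for Pcdhgc3 by 2.90 ± 0.59 (SE) on the log2 scale (adjusted p = 0.00362). It exceeded layer C by 2.03 ± 0.56 (adjusted p = 0.0303). The first difference kept its call with each sample left out (adjusted p between 0.00179 and 0.0187). The second lost it without layer A replicate 1 (adjusted p = 0.0854), layer A replicate 2 (0.126), layer C replicate 1 (0.0869), layer C replicate 2 (0.114) or layer C replicate 3 (0.0551).

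Pcdhgc5, the last gene of the cluster, has its variable exon at positions 37819513 to 37822134. Its reads above the shared level came to 7.71, 21.6 and 13.8 CPM in layer A, 55.1, 47.9 and 16.9 CPM in layer B, and 39.9, 15.1 and 30.6 CPM in layer C. Layer A was lower on average, but its replicate 2 lay above layer B replicate 3 and layer C replicate 2, so the layers overlapped. The fitted change was -1.48 ± 0.48 (SE) against layer B (adjusted p = 0.0459) and -0.99 ± 0.47 against layer C (adjusted p = 0.211). The call against layer B was lost in 6 of the 9 fits that left out a sample, namely without layer A replicate 1 (adjusted p = 0.188) or 3 (0.121), layer B replicate 1 (0.177) or 2 (0.116), or layer C replicate 1 (0.0642) or 3 (0.068). With the replicate number as a block its adjusted p was 0.0763.

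The ratio of Pcdhgc3 to Pcdhgc5 reads compares both genes within a sample and does not depend on scaling between libraries. It was 3.19, 1.59 and 1.00 in layer A replicates 1, 2 and 3, 0.0729, 0.102 and 0.0493 in layer B, and 0.193, 0.174 and 0.236 in layer C. The lowest ratio in layer A was 4.25 times the highest ratio of the other layers. Every layer C sample was in turn above every layer B sample. An exact two-sided permutation test of the log2 ratios gave p = 0.1 for each pair of layers, the smallest value that 3 samples against 3 allow, and this ratio was chosen after its values were seen. With Pcdhgc4 in place of the lowest member as the shared level, the ratio in layer A was 3.19, 1.69 and 1.00, and that in layers B and C ran from 0.0493 to 0.209.

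The antisense gene BC037039 overlaps 1513 of the 2568 bases (58.9%) of the Pcdhgc3 variable exon. The libraries did not keep strand, so its reads cannot be told apart from those of Pcdhgc3. Astrocyte markers, given above, were also higher in all layer A samples, and their part in the ratio was not tested.

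**Figure D2:**
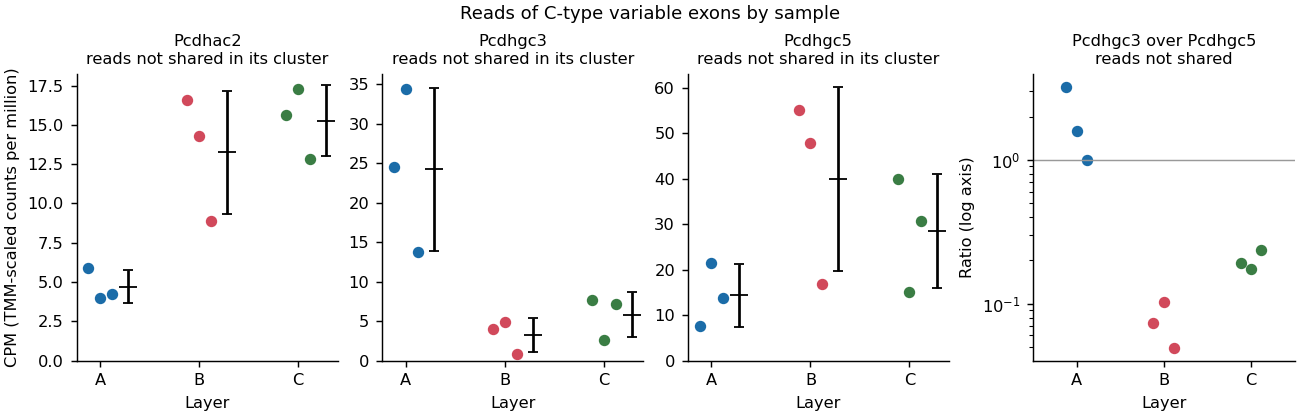
Reads of Pcdhac2, Pcdhgc3 and Pcdhgc5 above the shared level of their group, as CPM by sample with the mean ± SD (n = 3) on linear axes from 0, and the ratio of Pcdhgc3 to Pcdhgc5 reads on a log axis with a line at 1. Pcdhgc3 is highest in layer A and Pcdhac2 lowest there, and the ratios of layer A, from 1.00 to 3.19, lie above those of the other layers.

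Pcdhac2 had 5.93, 4.01 and 4.21 CPM of reads above the shared level in layer A, 16.6, 14.3 and 8.91 CPM in layer B, and 15.7, 17.3 and 12.8 CPM in layer C. Layer A did not overlap with either of the other layers. The change was -1.50 ± 0.34 (SE) against layer B (adjusted p = 0.00763) and -1.70 ± 0.34 against layer C (adjusted p = 0.00732). Without layer B replicate 1 the first had an adjusted p of 0.0515. The shared level of its group, given above, was likewise lower in each layer A sample than in every sample of the other layers.

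Pcdhgc4, the remaining gamma C-type gene, had 0, 44 and 24 such reads in layer A, 0 in each layer B sample, and 4, 8 and 121 in layer C. It was itself the lowest gamma member in 4 samples, including all of layer B, where the subtraction sets it to 0. No fold change is therefore given for it.

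Within layer B, replicate 3 stood apart in how reads were spread along these transcripts. Reads above the shared level made up 6.14% of the Pcdhac2 count there (95% Wilson interval 5.60% to 6.72%), against 18.8% and 19.4% in replicates 1 and 2. For Pcdhgc5 the share was 15.5% (14.6% to 16.5%), against 34.1% and 34.8%, and for Pcdhgc3 it was 0.899% (0.661% to 1.22%), against 3.63% and 5.15%. Reads of amplified RNA without molecular identifiers are not independent molecules, so these intervals cover counting error only. They leave out the error of the subtracted level. Without layer B replicate 3 the change of Pcdhgc3 reads against layer B kept its call, as given above. Single samples of the other layers also differed. Layer A replicate 3 had 9.62% for Pcdhac2, against 15.8% and 15.9%, and 15.5% for Pcdhgc3, against 27.7% and 27.1%. For Pcdhgc5 it lay between the other 2, at 15.5%. Layer C replicate 2 had 19.7% for Pcdhgc5, against 32.1% and 27.7%, and 4.08% for Pcdhgc3, against 8.36% and 8.29%. For Pcdhac2 it had 13.7%, against 17.1% and 14.4%.

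Beta genes were measured from few reads, with a sum over the cluster of 477 to 4863 counts per sample, and Pcdhb1 had 0 to 2 counts in each sample and was not tested. Of the 22 genes, 17 had more than 3 counts in every sample. The summed level was 42.3, 31.9 and 35.2 CPM in layer A, between 55.3 and 71.7 CPM in layer B, and 45.2, 67.1 and 41.4 CPM in layer C. Layer A lay below all samples of layer B and overlapped with layer C.

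Of 21 beta genes tested, 2 were called lower in layer A against layer B, Pcdhb3 and Pcdhb13, and none was higher, where 10.7% of all transcripts were called higher. This share of 9.52% called lower compares with 5.83% of all transcripts. Their median change was -0.85, and 19 of 21 values were below 0, as were 31224 of 56416 over all transcripts tested. Between layers A and C, 2 of 21 (9.52%) were lower, Pcdhb13 and Pcdhb17, where 4.35% of all transcripts were. The median was -0.27, and 15 of 21 values were below 0, as were 28380 of 56416 over all transcripts tested. No beta gene was called higher there, where 6.98% of all transcripts were.

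Pcdhb13 had 1.10, 2.07 and 2.17 CPM in layer A, 4.69, 4.41 and 6.64 CPM in layer B, and 5.30, 6.19 and 3.23 CPM in layer C, without overlap between layer A and the others. It changed by -1.54 ± 0.41 (SE) against layer B (adjusted p = 0.0186) and -1.43 ± 0.41 against layer C (adjusted p = 0.0372). Without layer A replicate 1 the adjusted p was 0.0829 and 0.137, and the call against layer C was kept in only 3 of 9 fits that left out a sample, those without layer B replicate 2 or 3 or layer C replicate 3.

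Pcdhb3 had 0, 0.735 and 0.474 CPM in layer A, from 0, 11 and 19 counts, 1.24, 1.43 and 3.04 CPM in layer B, and 1.01, 1.15 and 1.12 CPM in layer C. Its change against layer B was -2.16 ± 0.69 (adjusted p = 0.044). It kept that call in 1 of the 9 fits that left out a sample, the one without layer A replicate 2, and the adjusted p otherwise ran up to 0.114. Pcdhb17, with the highest level per kilobase among beta genes, had 4.23, 2.34 and 3.12 CPM in layer A, 6.31, 5.20 and 6.54 CPM in layer B, and 7.09, 14.2 and 4.63 CPM in layer C. Its change against layer C was -1.41 ± 0.43 (adjusted p = 0.0454), and without layer C replicate 2, the sample at 14.2 CPM, it was -0.86 (adjusted p = 0.227). That call was kept in 2 of the 9 fits, those without layer B replicate 3 or layer C replicate 3.

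**Figure D3:**
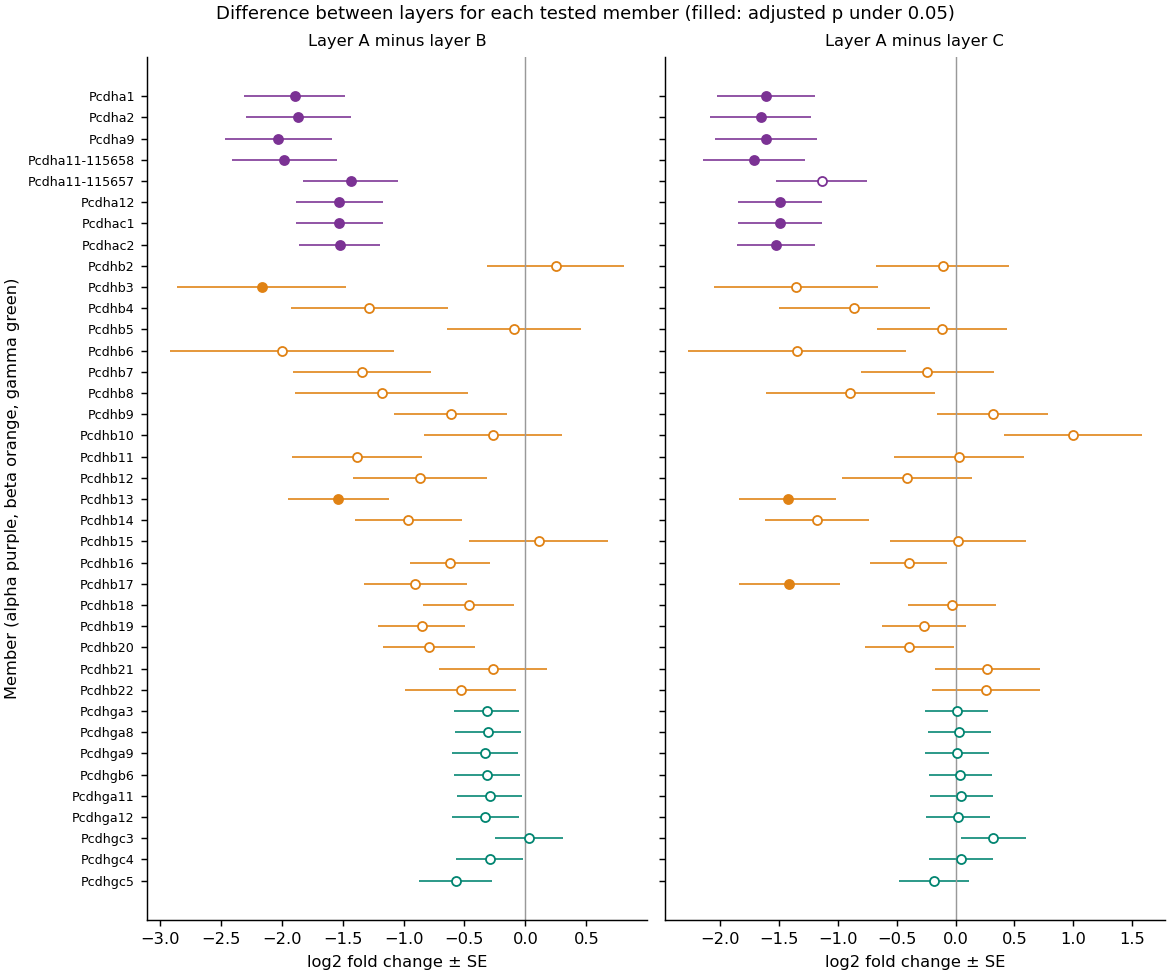
Fitted log2 fold change with its standard error for each of the 38 members tested, layer A minus layer B on the left and layer A minus layer C on the right, with filled points for an adjusted p under 0.05. On the left, alpha members lie between -2.03 and -1.43 and gamma members between -0.57 and 0.03. Beta members there spread from -2.16 to 0.25, with a median of -0.85.

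Levels differed widely among beta genes. Over the 9 samples Pcdhb17 averaged 1.28 CPM per kilobase, Pcdhb20 1.19 and Pcdhb16 1.19, whereas Pcdhb6 averaged 0.0529. These 3 high genes were close in layer B, at 1.29 ± 0.154, 1.52 ± 0.388 and 1.42 ± 0.0618 CPM per kilobase (SD, n = 3), and did not differ beyond their spread. Genes Pcdhb13 to Pcdhb22, which lie nearer the gamma cluster, had a median of 0.881 CPM per kilobase. Pcdhb1 to Pcdhb12, whose values overlapped with theirs, had a median of 0.258. Across the 22 genes the Spearman correlation of this level with position in the cluster was 0.69, and with the share of 50-base words that a gene has in common with other genes it was -0.11. Both are descriptions across genes measured in the same libraries, and genes are not independent replicates. The 10 genes Pcdhb13 to Pcdhb22 took 75.2% ± 4.80, 73.1% ± 5.52 and 78.9% ± 4.10 (SD, n = 3) of beta counts in layers A, B and C, and the samples of the layers overlapped.

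**Figure D4:**
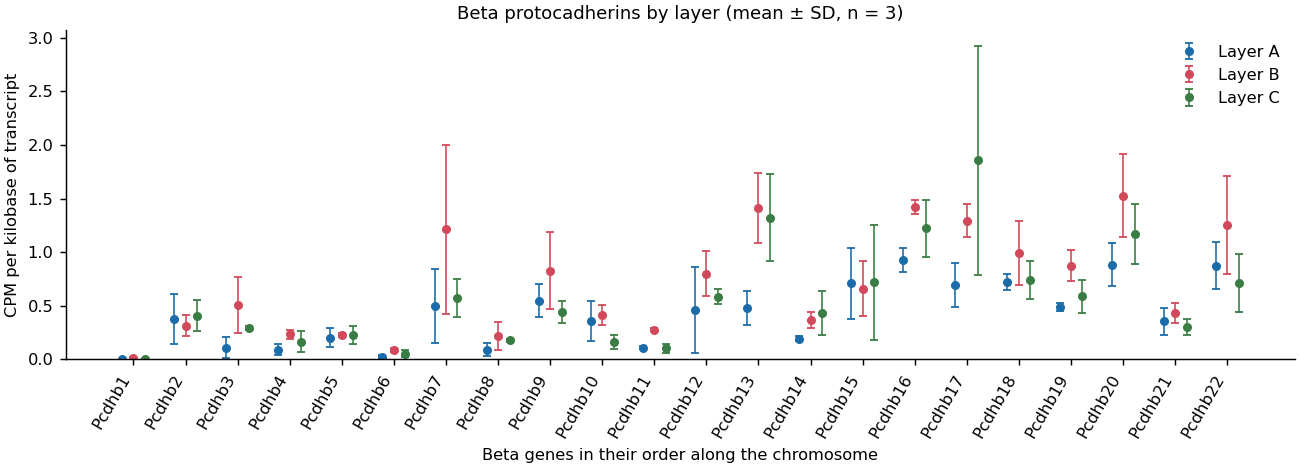
Level of the 22 beta genes in CPM per kilobase of transcript, on a linear axis from 0, in their order along the chromosome, as the mean ± SD (n = 3) of each layer. Genes up to Pcdhb12 have a median of 0.258 and genes from Pcdhb13 on a median of 0.881, with overlap between them.

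Between layers B and C, 0 of 38 members were called by edgeR's quasi-likelihood test, as were 0% of all transcripts (0 of 56416). At an unadjusted p under 0.05, 4.11% of all transcripts and 2 members passed, the beta genes Pcdhb11 (log2 fold change 1.41 ± 0.51, SE) and Pcdhb10 (1.26 ± 0.56), both with higher values in layer B. DESeq2 called 124 transcripts and no member. Alpha members changed by between 0.00 and 0.42 and gamma members by between 0.29 and 0.39 on the log2 scale.

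Among genes that act with the protocadherins, none of the 17 tested promoter and chromatin regulators, which include Ctcf and the cohesin subunits Rad21, Smc1a and Smc3, passed the test between any layers, where 16.5%, 11.3% and 0% of all transcripts were called between layers A and B, A and C, and B and C. The median of their log2 changes was 0.37 for layer A against B and 0.23 for layer A against C, and 1 gene passed at an unadjusted p under 0.05 in each of these comparisons, where 29% and 24.5% of all transcripts did, and 0 between layers B and C. DESeq2 called 1 of them, the cohesin subunit Stag2, higher in layer A against layer B, and 0 in the other comparisons, and Stag2 is named for that reason. Ctcf averaged 15.5, 17.0 and 13.8 CPM in layers A, B and C. Of 20 genes for cytoplasmic partners and processing enzymes, edgeR called 5 (25.0%) lower in layer A against layer B, where 5.83% of all transcripts were, and 4 (20.0%) against layer C, where 4.35% were. It called none higher, where 10.7% and 6.98% of all transcripts were, whereas DESeq2 called 1 higher in each comparison, Cyfip1, a subunit of the WAVE complex. Wasf1, an actin-regulating subunit of the WAVE complex, which alpha and gamma protocadherins can recruit, had 12.7, 16.6 and 32.7 CPM in layer A and changed by -2.54 ± 0.38 (SE) against layer B (adjusted p = 0.000586) and -1.98 ± 0.37 against layer C (adjusted p = 0.0051). Ptk2b, the kinase Pyk2 that protocadherins inhibit, changed by -2.22 ± 0.39 (adjusted p = 0.00152) and -1.67 ± 0.38 (adjusted p = 0.0127). Cyfip2, a further WAVE subunit, changed by -1.02 ± 0.26 (adjusted p = 0.0137) and -1.11 ± 0.26 (adjusted p = 0.0142), and Prkca, a protein kinase C, by -1.18 ± 0.29 (adjusted p = 0.012) and -1.02 ± 0.29 (adjusted p = 0.0338). The list holds 5 more genes of this complex, none of which edgeR called in these comparisons, and they did not all lean one way. Cyfip1 had log2 fold changes of 0.93 ± 0.31 (adjusted p = 0.0559) and 0.95 ± 0.31 (adjusted p = 0.0637), and Nckap1 one of -0.77 ± 0.30 against layer B (adjusted p = 0.0952). Cyfip1 and Nckap1 are named after their values were seen. The median over the 20 genes was -0.70 against layer B and -0.29 against layer C.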

How the data were processed

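The authors dissected the layers, amplified the RNA, made libraries without strand information and aligned paired reads to mm10. Per the labels, Bowtie, HTSeq 0.5.3 and bcl2fastq 1.8.4 were used. The deposited values are raw read counts for each Ensembl transcript, and counts were close among most members of the gamma cluster and of each of 2 groups of alpha transcripts, as when shared reads are counted for each member. How reads matching several places were treated is not given in the sources used here.

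Of 95533 identifiers, 82779 (86.6%) were found in GENCODE M21. The filter asked for 10 or more counts in 3 or more samples and left 56416 transcripts. After TMM scaling, all 9 samples entered 1 quasi-likelihood fit (edgeR 4.0.16, R 4.3.3), with Benjamini-Hochberg adjustment over all transcripts and a threshold of 0.05. DESeq2 1.42.0 was an alternative. On simulated counts with 200 of 54610 transcripts changed in layer A by a log2 change of 2, 76 (38.0%) were found when layer A was compared with layer B, and 6 calls were false. Near-identical sequence can move reads between genes: the median share of 50-base words found in other genes was 11.8% in alpha, 3.65% in beta and 0% in gamma variable exons or single exons.

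Reads of single variable exons were approximated by subtracting, in each sample, the lowest member's count. The lowest count within 2 groups of alpha members was subtracted, a choice made after seeing the data. Low values can be set to 0 by this step. Fits on these reads treat the differences as counts without the error of the subtracted count, so standard errors and p-values can be too small.

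Named genes were the 5 C-type genes, up to 5 members per cluster, comparison and direction past the threshold with the smallest p-values, the members with the highest and lowest level per kilobase, and up to 3 genes per direction of each related list. Pcdhb10, Pcdhb11, Pcdhb16, Pcdhb20 and Pcdhb6, and the ratio of Pcdhgc3 to Pcdhgc5, were chosen after their values were seen. The split of beta genes at Pcdhb13 was not planned beforehand. Members and lists were chosen with earlier results of these data known. No sequences are printed.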

Additional observations from a re-analysis of the deposited data

How the results depend on the processing

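Calls between layers B and C stayed at 0 in every cluster under each alternative run. With at least 10 counts in all 9 samples, which removes transcripts, 4 alpha members and 1 beta member were called between layers A and B and 3 alpha members between layers A and C. With only the 6 samples compared, or without mitochondrial transcripts, 1 beta gene was called between layers A and B, Pcdhb3 being lost (adjusted p = 0.0978 and 0.0504). With the lowest count of the whole cluster subtracted, 3 alpha members were called in each comparison with layer A, and 3 gamma members against layer B and 1 against layer C. With alpha members in 2 groups, an alternative added after seeing the data, 1 alpha member was called in each, and 3 and 1 gamma members. The gamma count of 3 includes Pcdhgc4, which the subtraction sets to 0 in layer B. With Pcdhac1 and Pcdhgc4 as shared level, also added, the counts were 1 and 1 for alpha and 2 and 1 for gamma. Leaving out each sample gave 6 to 8 alpha and 1 to 2 beta calls against layer B, and 0 to 8 alpha and 0 to 2 beta calls against layer C.

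Whether replicate numbers pair the samples could not be settled from 3 samples per layer. Deviations from the layer means of samples with the same number correlated between -0.19 and 0.24, and 4 of 9 pairs were over 0.1. For samples with different numbers the correlations ran from -0.37 to 0.39, and 6 of 18 pairs were over 0.1. With the replicate block, 8 alpha and 2 beta members were called against layer B and 7 and 1 against layer C, Pcdhb17 being lost (adjusted p = 0.0663), and 9184 of all transcripts between layers A and B, where 9329 were without it.

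For single members' changes on whole counts, 219 values kept direction and side of the threshold under alternatives that kept all samples, 3 lost the call and 2 changed direction. The 219 include the alternative with the longest coding transcript of each member. Each member had 1 transcript in the data, so that alternative repeats the main fit and could not differ. With each sample left out in turn, 185 stayed the same, 46 lost the call and 3 changed direction. Pcdhgc3 against layer B, near 0, turned to -0.00022 with no filter and ran from -0.16 to 0.16 with each sample left out. Pcdhgc4 against layer C turned to -0.011 with no filter and ran from -0.11 to 0.18. The cause of these changes was not tested. Low counts limit the beta genes, with a summed count as low as 477 in a layer A sample, and the alpha transcripts with small counts, some at 9 in layer A.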
